A study of Mus musculus with 4 samples.

Results

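Necklace neurons are sensory neurons of the olfactory epithelium that do not use the usual odorant receptor pathway, and the 6 genes described here, Gucy2d, Gucy1b2, Cnga3, Pde2a, Car2 and Trpc2, were taken from a named list of their guanylyl cyclases and signalling proteins. 5 of the 6 were matched among the 22399 genes of the features tables by symbol and gene ID. Trpc2 was not matched and is not analysed here. The data are 4 libraries of single cells from wild type mice of the strain C57BL/6J, all 3 months old, with main olfactory epithelium as the tissue. 2 are from females (female 1 and female 2) and 2 from males (male 1 and male 2). No allele, transgene or agent is given in the labels for any group, and the series title concerns neurexins and the targeting of olfactory axons. The labels do not say how many animals gave each library, so the spread between libraries of a sex is that between these preparations. The cells were dissociated with papain, and the 5′ ends of their transcripts were captured in droplets.

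Most olfactory sensory neurons (OSNs) choose 1 odorant receptor gene (Olfr) and signal through the G protein subunit Gnal, the adenylyl cyclase Adcy3 and a cyclic nucleotide-gated channel built from Cnga2, Cnga4 and Cngb1. Necklace neurons instead make cGMP with the receptor guanylyl cyclase GC-D, the product of Gucy2d, and are known for the cone-type channel subunit Cnga3, the cGMP-stimulated phosphodiesterase Pde2a and the carbonic anhydrase Car2, which lets them respond to carbon dioxide. Their axons end in a chain of glomeruli around the caudal olfactory bulb, from which the name comes, and their chemoreceptors include proteins of the Ms4a family. Gucy1b2 codes for a subunit of a soluble guanylyl cyclase and marks a separate sparse type of neuron, which is known for sensing low oxygen with the channel Trpc2.

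A barcode stands for 1 captured droplet, and a UMI (unique molecular identifier) for 1 captured RNA molecule. Barcodes with at least 500 detected genes were kept, which left 10489, 9968, 9973 and 10330 in female 1, female 2, male 1 and male 2 and 40760 in all. The libraries held 100725429 to 111577458 UMIs each, and the median kept barcode had 8494.5 to 9363. Between 136 and 172 barcode sequences were shared by each pair of libraries, at most 1.62% of the smaller one. Each barcode was given to a cell type by 6 marker genes per type, none of them a member, Cnga2, Adcy3 or an Olfr gene. Omp, Stoml3 and Gng13 are among the mature OSN markers, and Gng8, Dpysl3 and Stmn2 among the immature ones. The mature OSN gate held 22659 barcodes and led with S100a5, Stoml3 and Omp, the immature OSN gate held 3152 and led with Vim, Gng8 and Gap43, and 10.4% to 10.8% of the barcodes of a library were in no gate.

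Gucy2d lies on chromosome 7 (chr7:98440416-98477479, plus strand, GRCm38), and the pseudogene Gm2926, which was not counted, overlaps it on the same strand. Gucy1b2 lies on chromosome 14 (chr14:62392676-62456289, minus strand). The 250 bases before the annotated start of each are printed, 5′ to 3′ on the gene's strand, because these 2 genes choose the barcodes compared later (RefSeq, GRCm38.p6).
Gucy2d, chr7:98440166-98440415, plus strand: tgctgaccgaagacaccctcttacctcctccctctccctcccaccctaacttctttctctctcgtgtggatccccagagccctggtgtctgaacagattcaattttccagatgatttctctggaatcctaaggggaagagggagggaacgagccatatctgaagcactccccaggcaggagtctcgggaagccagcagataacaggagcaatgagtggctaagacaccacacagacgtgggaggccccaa
Gucy1b2, chr14:62456290-62456539, minus strand: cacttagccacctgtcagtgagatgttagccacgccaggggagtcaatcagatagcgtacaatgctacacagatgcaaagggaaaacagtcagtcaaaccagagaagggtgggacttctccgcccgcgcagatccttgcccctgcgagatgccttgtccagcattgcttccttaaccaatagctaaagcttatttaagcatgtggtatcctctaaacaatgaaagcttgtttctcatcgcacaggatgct
Neither window holds TAATTA, a homeodomain core motif, or CCCNNGGG, the Ebf motif, so no letters are in capitals. Both motifs read the same on the 2 strands, and neither overlaps the other. Among 32851 promoter windows of that length, 4.84% held TAATTA and 11.8% held CCCNNGGG. The same search found no match in the windows of Cnga3 (chr1:37214434-37263384, plus strand), Pde2a (chr7:101421691-101512827, plus strand) and Emx1 (chr6:85187438-85204462, plus strand). Car2 lies at chr3:14886273-14900770 on the plus strand. All 5 members are protein-coding genes, and Gm45837 and Mir139, which overlap Pde2a on its strand, were not counted.

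The 2 cyclases were rare in the tissue and each was concentrated in few barcodes. Gucy2d gave 172, 201, 172 and 313 UMIs in female 1, female 2, male 1 and male 2. Those 858 UMIs lay in 143 barcodes (0.351% of 40760), and 10 barcodes held 49.0% of them. The highest library was male 2, in which a single barcode had 138 UMIs, the most of any barcode. Gucy1b2 gave 1423, 1161, 896 and 565 UMIs in the same order, 4045 in all from 345 barcodes (0.846%), with 261 in the richest barcode. Both female libraries were above both male libraries.

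Cnga3 was the sparsest member, with 18, 42, 5 and 27 UMIs from 40 barcodes. Pde2a gave 587, 892, 521 and 577 UMIs from 1232 barcodes, and Car2 gave 5202, 7219, 4925 and 6300 UMIs from 9328 barcodes (22.9%). The members thus differed in how widely they were spread: the 73 barcodes with 2 or more Gucy2d UMIs held 80.4% of all Cnga3 UMIs, 40.4% of Car2 UMIs and 19.9% of Pde2a UMIs. The 109 barcodes with 2 or more Gucy1b2 UMIs held 94.2% of the Gucy1b2 UMIs, 4.35% of Cnga3, 0.660% of Pde2a and 0.406% of Car2.

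Levels by cell type were taken as CPM (counts scaled to a total of 1e6 UMIs) of the summed barcodes of a gate in each library, and are given as mean ± SD over 4 libraries. 15 gates with at least 20 barcodes were described. A sum mixes the share of barcodes that use a gene with the amount in each, which cannot be told apart in it.

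Gucy1b2 was highest in mature OSNs, at 27.2, 19.9, 15.7 and 11.6 CPM in female 1, female 2, male 1 and male 2 (18.6 ± 6.69, n = 4). Immature OSNs held 0.576 ± 0.295 CPM, with a range of 0.247 to 0.927 that lay below every mature value. Of the 22659 mature OSNs, 1.20% had a Gucy1b2 UMI (95% exact binomial interval 1.06% to 1.35%), against 0.269% of sustentacular cells (0.165% to 0.416%), the supporting cells of the epithelium, at median depths of 7972 and 12948 UMIs. Thinned to 2000 UMIs per barcode the shares were 0.511% and 0.0498%. The gates next in order were neutrophils, at 8.45 ± 16.9 CPM from 2 UMIs in 1 library, a range that overlaps that of mature OSNs, and macrophages, at 0.891 ± 1.04 CPM from 2 UMIs.

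Gucy2d had its highest mean in immature OSNs, at 5.59, 1.56, 3.95 and 19.0 CPM (7.53 ± 7.83). Mature OSNs held 1.24, 0.225, 2.20 and 1.53 CPM (1.30 ± 0.819), and neuronal precursors 2.31 ± 2.80. Within each library the immature value was above the mature one, and across libraries the ranges overlapped. In the immature gate 1.17% of barcodes had a UMI (0.828% to 1.61%; 0.344% after thinning), in the mature gate 0.216% (0.160% to 0.286%; 0.105% after thinning) and in the sustentacular gate 0.148% (0.0740% to 0.265%; 0.0559% after thinning). No Gucy2d UMI was seen in 8 of the gates, tuft-like microvillar cells and macrophages among them, where 0 of 122 and 0 of 419 barcodes, at median depths of 4551 and 5207 UMIs, allow shares with a UMI of up to 2.46% and 0.716%. These limits are on barcodes with a UMI, not on cells that use the gene.

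Cnga3 did not exceed 0.367 ± 0.383 CPM in any gate. That value was in immature OSNs, followed by sustentacular cells at 0.192 ± 0.229 and mature OSNs at 0.149 ± 0.0481, and the 3 ranges overlapped. The channel subunit was at 0 in every other gate.

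Among the 15 gates Pde2a was by far highest outside the neurons. A gate sum does not show its level in the few barcodes with 2 or more Gucy2d UMIs, which is given below. Tuft-like microvillar cells, the Trpm5-bearing chemosensory cells of the epithelium, held 453, 474, 419 and 261 CPM (402 ± 96.3), above every value in any other gate. Of their 122 barcodes 82.0% had a Pde2a UMI (74.0% to 88.3%), and 57.2% after thinning. Neutrophils followed at 127 ± 85.0 CPM and B cells at 112 ± 75.5 CPM, from 25 and 10 UMIs, with overlapping ranges.

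Along the neuronal lineage Pde2a stood at 34.1 ± 14.7 CPM in neuronal precursors, 12.5 ± 5.07 in immature OSNs and 2.82 ± 0.249 in mature OSNs. The lowest immature value, 8.76, was above the highest mature value, 3.19, and the lowest precursor value, 21.6, was above the highest immature value, 19.6. In ionocyte-like microvillar cells no Pde2a UMI was seen in 220 barcodes, which allows a share with a UMI of up to 1.36%. With the Gucy2d barcodes left out the immature level was 10.2 ± 3.63 CPM and the mature level 2.09 ± 0.247.

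Car2 was the only member with a broad neuronal signal. Mature OSNs held 67.7, 65.6, 78.7 and 77.2 CPM (72.3 ± 6.65), and 34.2% of them had a UMI (33.6% to 34.9%; 11.1% after thinning). Immature OSNs held 54.9 ± 28.7 CPM, ensheathing glia, which wrap the olfactory axons, 54.1 ± 31.4, and sustentacular cells 22.9 ± 22.3. A Car2 UMI was found in 4.73% of immature OSNs, 7.45% of sustentacular cells and 31.2% of glia, or 1.32%, 1.73% and 13.8% after thinning. Immature OSNs were thus near mature OSNs in level but not in share, and glia were near them in both. Horizontal basal cells and macrophages had shares of 3.84% and 3.82%, or 1.04% and 1.27% after thinning. The part of free RNA in these shares was not tested.

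With the 73 Gucy2d barcodes left out, Car2 in mature OSNs was 59.4, 53.9, 55.8 and 52.1 CPM (55.3 ± 3.12). In immature OSNs it dropped to 16.6 ± 10.7 CPM and in sustentacular cells to 8.29 ± 1.20. The Gucy2d barcodes thus carried most of the Car2 UMIs of the immature and sustentacular gates, and a smaller part of those in the mature gate, where all 4 values then lay above the highest immature value, 28.6. Barcodes with 10 or more Car2 UMIs numbered 82, of which 55 had a Gucy2d UMI, 11 were in the erythroid gate of 13 barcodes, and 16 were neither.

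**Figure D1:**
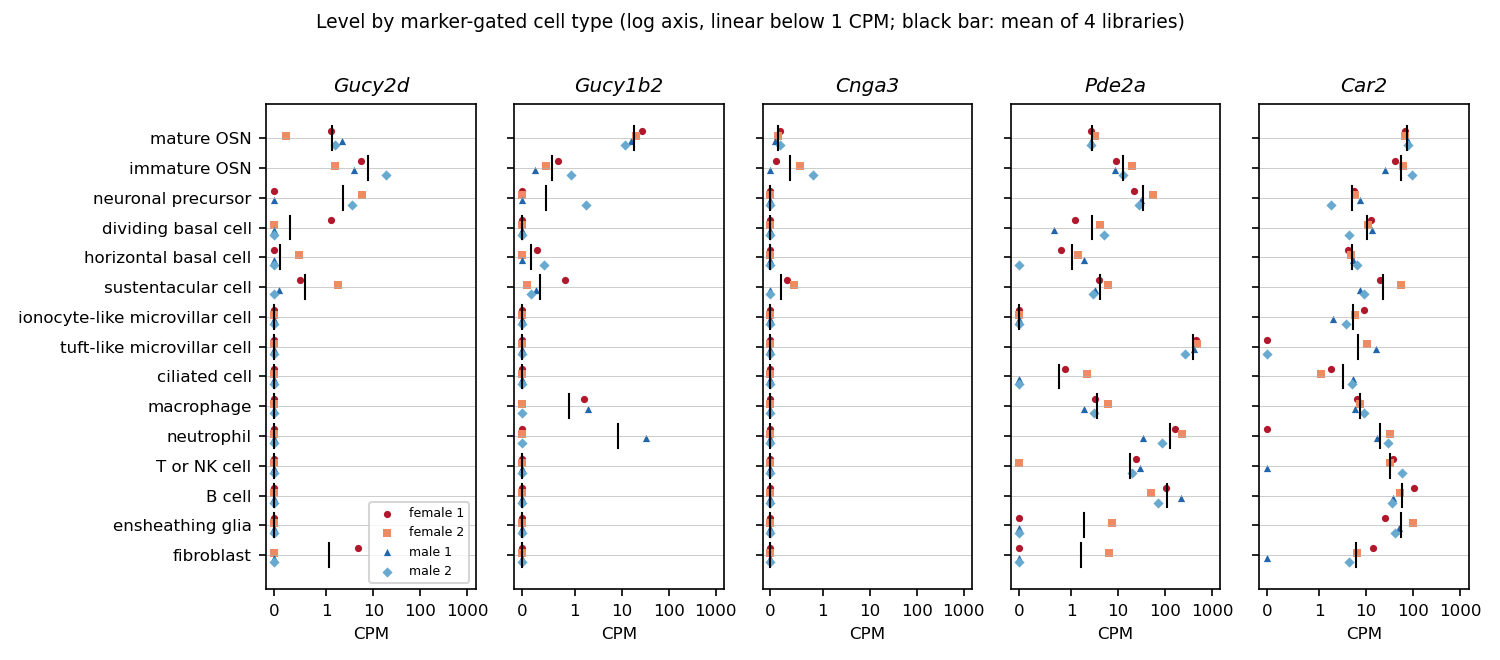
Levels of the 5 members in 15 marker-gated cell types, in CPM on a log axis that is linear near 0. Points are the 4 libraries and black bars their means; Gucy1b2 stands out in mature OSNs (18.6 CPM), Pde2a in tuft-like microvillar cells (402 CPM), and Car2 is spread over neurons and glia.

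The comparison of mature with immature OSNs tested these differences over summed counts with the library as a block (edgeR's quasi-likelihood test, Benjamini-Hochberg adjustment over 14644 genes). It called 73.0% of all genes, 36.1% higher and 36.9% lower in mature OSNs, so a call on its own is the usual outcome here. Of 4 members tested, Gucy1b2 rose by 5.15 ± 0.31 on the log2 scale (SE, adjusted p = 1.1e-05), Gucy2d fell by 2.17 ± 0.47 (adjusted p = 0.0053) and Pde2a fell by 1.90 ± 0.20 (adjusted p = 1.6e-04). Car2 differed by 0.63 ± 0.26 (adjusted p = 0.069), and by 0.92 (adjusted p = 0.021) without male 2, where the richest Gucy2d barcode lies. The fall of Gucy2d rests mostly on the 10 immature and 29 mature barcodes with 2 or more of its UMIs. Cnga3 had too few UMIs for this test.

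The related lists split by role. All 12 genes of the canonical transduction pathway rose in mature OSNs, with a median of 2.90 on the log2 scale against 0.03 over all genes. Gng13, 1 of the 12, is a marker of the mature OSN gate, so its rise follows from the gating. Of the genes for cGMP synthesis and its targets, 6 of the 7 tested fell and 1 did not pass, among them the natriuretic peptide receptor cyclase Npr2 (-3.39 ± 0.28, adjusted p = 4.9e-05) and the cGMP-dependent kinase Prkg1 (-2.52 ± 0.18, adjusted p = 2.6e-05). Of 21 phosphodiesterases 6 rose, 13 fell and 2 did not pass. The cGMP-specific Pde5a and Pde9a fell by 3.19 ± 0.17 and 2.10 ± 0.11.

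Members were then counted together in single barcodes. At 1 or more UMIs, Gucy2d and Cnga3 were found together in 31 barcodes (6, 12, 4 and 9 in female 1, female 2, male 1 and male 2), where 0.144 would be expected if the 2 genes were independent within each library. These were 77.5% of the Cnga3 barcodes and 21.7% of the Gucy2d barcodes. Gucy2d and Pde2a were found together in 83 barcodes against 4.37 expected, and Cnga3 and Pde2a in 35 against 1.25, which was 87.5% of the Cnga3 barcodes. All 3 pairs exceeded their expected number in 4 of 4 libraries.

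Car2 met Gucy2d in 82 barcodes against 32.8 expected at 1 UMI, and in 62 against 4.84 at 2 or more UMIs of each. Pde2a and Car2 shared 235 barcodes against 283 expected at 1 UMI, below in 4 of 4 libraries, yet 77 against 30.5 at 2 or more. The sign of this pair thus depended on the count required. Gucy1b2 and Car2 shared 127 barcodes against 79.3, and Gucy1b2 and Pde2a 16 against 10.4. The expected numbers take no account of cell type or of depth per barcode, whose part was not tested.

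The 2 cyclases were seldom found together. Both had at least 1 UMI in 3 barcodes, against 1.21 expected, and 2 or more UMIs in 0 barcodes, against 0.196 expected. Numbers this small do not show whether the pair was found together more or less often than independent genes. Against the usual OSN genes, Gucy2d shared 51 barcodes with Cnga2 where 95.9 were expected, below in 4 of 4 libraries, while Gucy1b2 shared 299 where 231 were expected, above in 4 of 4. The homeobox gene Emx1 was found with both cyclases, in 64 Gucy2d barcodes (1.38 expected) and 62 Gucy1b2 barcodes (3.36 expected). Of 188 barcodes with 2 or more Emx1 UMIs, 52 had a Gucy2d UMI, 58 a Gucy1b2 UMI and 79 neither.

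By the phi coefficient of detection over 40760 barcodes, a measure of how far 2 genes are seen in the same barcodes, the genes most like Gucy2d were Cnga3 (0.407), Gpr22 (0.358), its channel partner Cngb3 (0.353), Adgra1 (0.348), Sphkap (0.336), Slc26a4 (0.324), D630023F18Rik (0.313) and Rgs4 (0.308). The genes most like Gucy1b2 were Sln (0.186), Emx1 (0.162), Slurp2 (0.140), Sncg (0.139), Tbr1 (0.138), Ankrd65 (0.134), Mmp17 (0.123) and Hcrtr1 (0.119). Over the 15 cell types Cnga3 was most like Gpr22 (r = 0.983) and Cngb3 (0.966), Pde2a most like Dcaf12 (0.874), and Car2 most like Olfr1382 (0.844). These are descriptions in which the points share libraries and depth, and they carry no test.

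Barcodes with 2 or more UMIs of a cyclase are called Gucy2d and Gucy1b2 barcodes below. Gucy2d barcodes numbered 16, 24, 16 and 17, or 0.153%, 0.241%, 0.160% and 0.165% of the barcodes of female 1, female 2, male 1 and male 2. The share was 0.0342 percentage points lower in males (exact permutation test, two-sided, p = 1), and the male values lay between the female ones. Gucy1b2 barcodes numbered 39, 29, 26 and 15, or 0.372%, 0.291%, 0.261% and 0.145%. Both male shares were below both female shares, a difference of -0.128 percentage points (exact permutation test, two-sided, p = 0.333), and 0.333 is the smallest p that 2 against 2 allows. Without female 2 the Gucy2d difference turned to 0.00996 percentage points higher in males.

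Gucy2d barcodes were spread over the gates. The mature OSN gate held 29 of the 73, the immature gate 10, the sustentacular gate 8, neuronal precursors 2 and dividing basal cells 1, and 23 were in no gate. Of those 23, 18 had at least 3 of the 6 mature OSN markers, and so did 7 of the 8 in the sustentacular gate, 7 of which came from female 2. Of the 109 Gucy1b2 barcodes, 97 were in the mature OSN gate and 7 in no gate. The median depth was 16466 UMIs in Gucy2d barcodes, 11978 in Gucy1b2 barcodes and 7954 in the other mature OSNs, and 20.5% of the Gucy2d barcodes were marked as possible doublets against 8.76% of the other mature OSNs.

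In Gucy2d barcodes UMIs of the usual receptor pathway were few, while those of Omp, the olfactory marker protein, were many. Omp had medians of 29.5, 33.5, 32.5 and 23 UMIs in female 1, female 2, male 1 and male 2, and 28 over all 73, against 70 in the other mature OSNs and 1 in sustentacular cells. Cnga2 had medians of 0.5, 0, 0 and 0, and the highest single value was 28 in male 1. Olfr genes summed to medians of 2.5, 2, 4 and 2 UMIs, with highest values of 60, 176, 317 and 65.

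Set against background, 16.4% of Gucy2d barcodes had 2 or more Cnga2 UMIs and 13.7% had 2 or more Adcy3 UMIs, where sustentacular cells, which should lack both, gave 4.75% and 15.7%. Thinned to 2000 UMIs, a Cnga2 UMI was found in 11.9% of Gucy2d barcodes, 4.76% of sustentacular cells and 81.4% of the other mature OSNs. For Adcy3 the thinned shares were 12.5%, 10.4% and 89.4%. An Olfr sum of 3 or more was reached by 53.4% of Gucy2d barcodes, 38.9% of sustentacular cells and 94.9% of the other mature OSNs. The sum is over all Olfr genes, so reaching it does not by itself show that a receptor was chosen.

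The barcodes just inside the threshold, with 2 Gucy2d UMIs, numbered 21, and 52.4% of them had 2 or more Pde2a UMIs, 57.1% Car2 and 38.1% Emx1. Just outside, the 70 barcodes with 1 UMI had 18.6%, 11.4% and 5.71%, and their median Omp was 2 UMIs. The shares were thus higher at 2 Gucy2d UMIs than at 1. The 22 barcodes with 10 or more Gucy2d UMIs showed the pattern most fully, at 95.5% for Pde2a, 100% for Car2 and 81.8% for Emx1. Their median was 216 Car2 UMIs, 9.5 Pde2a UMIs and 39.5 Omp UMIs at a depth of 22407, and 36.4% were marked as possible doublets. The part of doublets and of depth in these shares was not tested. Whether the barcodes form a graded set or a mixture was not tested either.

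For the test, the Gucy2d barcodes of each library were summed and set against the sum of its other mature OSNs. The 4 sums held 1302494 UMIs in all. This comparison called 37.6% of the 8755 genes tested, 19.8% higher and 17.8% lower. Gucy2d itself chose the barcodes and was not tested. A gene had to be worth 5 UMIs in an average sum of chosen barcodes, or 15.4 CPM as the mean of both groups. Of the genes tested, 723 were below that level in the other mature OSNs and entered only through their level in Gucy2d barcodes, and they make up 537 of the 1736 genes called higher. For such genes the levels and differences are given as a description, with no p.

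Car2 was far higher in Gucy2d barcodes, and Pde2a and Cnga3, which entered only through these barcodes, had far higher levels there. Car2 stood at 5092, 6617, 5516 and 14123 CPM in female 1, female 2, male 1 and male 2, against 52.1 to 59.4 CPM in the other mature OSNs. The groups were far apart in each library, a difference of 6.95 ± 0.27 on the log2 scale (SE, 124-fold, adjusted p = 2.0e-10). Pde2a stood at 226, 469, 234 and 623 CPM against 1.78 to 2.33, a difference of 7.39 ± 0.25 (168-fold).

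Cnga3 stood at 32.3, 66.8, 18.0 and 113 CPM, from 74 UMIs, against 0 to 0.0797 CPM from 7 UMIs. The difference of 10.31 ± 0.62 on the log2 scale rests on these few UMIs, and it was 11.22 without female 1 and 9.72 without male 2. In all 3 members male 2 was the highest library. With possible doublets and barcodes over 10% mitochondrial UMIs left out, the differences were 6.80 for Car2, 7.78 for Pde2a and 10.18 for Cnga3. Within the mature OSN gate alone, 29 barcodes, they were 7.07 for Car2 and 7.38 for Pde2a.

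**Figure D2:**
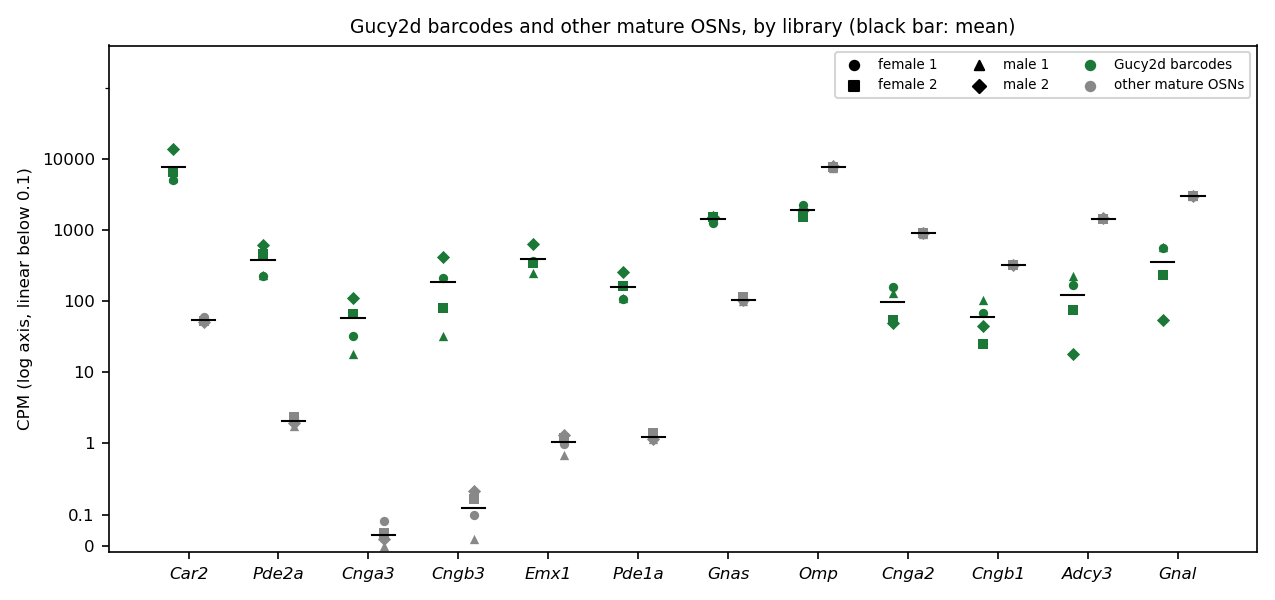
CPM of 12 genes in Gucy2d barcodes (green) and in the other mature OSNs (grey), 1 point per library, on a log axis that is linear below 0.1; black bars are means. Car2, Pde2a, Cnga3, Cngb3, Emx1, Pde1a and Gnas are higher in Gucy2d barcodes in every library, and Omp, Cnga2, Cngb1, Adcy3 and Gnal are lower in every library. Omp is a marker of the mature OSN gate.

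Among the channel genes Cnga2, Cnga4 and Cngb1, the subunits of the usual olfactory channel, were all lower. Cngb3, the partner of Cnga3, entered only through its level in these barcodes, as Cnga3 did. It stood at 215, 80.1, 32.4 and 416 CPM against 0.0209 to 0.213, a difference of 10.29 ± 0.40. Cnga2 stood at 158, 55.3, 129 and 49.7 CPM against 890 to 954, a difference of -3.36 ± 0.23 (10.3-fold lower, adjusted p = 6.6e-08). Its 4 values were below every value of the other mature OSNs.

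All 12 canonical transduction genes were lower, with a median of -2.75 on the log2 scale against -0.01 over all genes tested. Gng13 is a marker of the gate that chose the other mature OSNs, so its fall can follow in part from that choice. The olfactory G protein subunits Gnal and Gng13 fell by 3.35 ± 0.35 and 3.89 ± 0.29, the cyclase Adcy3 fell by 3.73 ± 0.32, the chloride channel Ano2 fell by 2.03 ± 0.19, and the Gnal activator Ric8b fell by 2.84 ± 0.33. Gnas, which codes for the related stimulatory subunit, stood at 1255, 1559, 1474 and 1554 CPM against 100 to 115 (3.73 ± 0.13, adjusted p = 6.4e-11). In the mature OSN gate alone Cnga2 and Adcy3 differed by less, -2.21 and -2.54. Only 29 of the 73 Gucy2d barcodes were in that gate, and 10 were in the immature gate. The same 12 genes were all higher in mature than in immature OSNs, with a median of 2.90. The part of neuronal stage and of the mix of gates in the differences of these 12 genes was not tested.

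Of the 5 phosphodiesterases whose test did not hang on the chosen barcodes 0 were higher and 4 lower, Pde1c, Pde4a, Pde6d and Pde7b. The calmodulin-dependent Pde1a entered only through these barcodes, as Pde2a did, with a difference of 6.88 ± 0.28. Pde1c and Pde4a, the enzymes that break down cAMP in usual OSNs, fell by 2.41 ± 0.25 and 2.65 ± 0.35. Of 2 carbonic anhydrases tested Car2 was higher, and Car11 did not pass. Trpc1 was the one Trpc channel tested and did not pass.

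No gene of the cGMP list, the Ms4a family, the vomeronasal receptors or the trace amine receptors (Taar) had enough UMIs in these sums to be tested. The Gucy2d barcodes held 52 UMIs of the 15 cGMP genes. The 21 Ms4a genes had 3 UMIs, all of Ms4a7 in 1 barcode, and the other 20 had none, which allows up to 2.30 CPM of each over these barcodes by a limit of 3 counts. The 15 Taar genes had 1 UMI.

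Genes of OSN maturation went both ways, with 5 of 12 higher, 6 lower and 1 not called. All of them but Rtp2 are markers of the mature or immature OSN gate. The gating chose the other mature OSNs but not the Gucy2d barcodes. These differences can thus follow in part from the gating and are given as a description. Gng8, a G protein subunit of immature OSNs, stood at 671, 1015, 820 and 1969 CPM against 14.8 to 18.4 (5.95 ± 0.20), above every value of the other group. Dpysl3 and Stmn2, proteins of the growing cytoskeleton, rose by 2.10 ± 0.15 and 1.38 ± 0.14. Omp fell by 2.08 ± 0.13, Stoml3, a protein of OSN cilia, by 3.69 ± 0.30, and the receptor transporter Rtp2 by 1.62 ± 0.14.

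Of 13 transcription factors other than Emx1, 3 were higher, 6 lower and 4 not called. Emx1, which entered only through these barcodes, stood at 373, 349, 248 and 632 CPM against 0.691 to 1.32, a difference of 8.48 ± 0.18. Its relative Emx2, which acts in usual OSNs, fell by 1.79 ± 0.24, Nfix fell by 2.14 ± 0.24 and Ebf4 by 2.29 ± 0.39, the last by 3.38 without male 1. Nfia rose by 0.91 ± 0.22 on the log2 scale (adjusted p = 0.0046), and did not pass within the mature OSN gate (0.74, adjusted p = 0.19).

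Outside the lists, the 10 genes of lowest p that were higher were Esm1, Sncg, Sphkap, Resp18, Podxl2, Fxyd6, Scg2, Gnas, S100z and Fxyd2. All but Gnas and Fxyd2 entered only through these barcodes, so for the others p served to pick names and is no support. Sncg, which codes for gamma-synuclein, differed by 8.93 ± 0.20, Scg2, a granin of secretory vesicles, by 5.64 ± 0.18, and Fxyd2 and Fxyd6, regulators of the sodium pump, by 6.86 ± 0.26 and 5.99 ± 0.19. The 5 lower ones were S100a5, H2bc21, Nsg1, Ctxn3 and Ptp4a3. S100a5, a calcium-binding protein of active OSNs, fell by 3.80 ± 0.19.

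**Figure D3:**
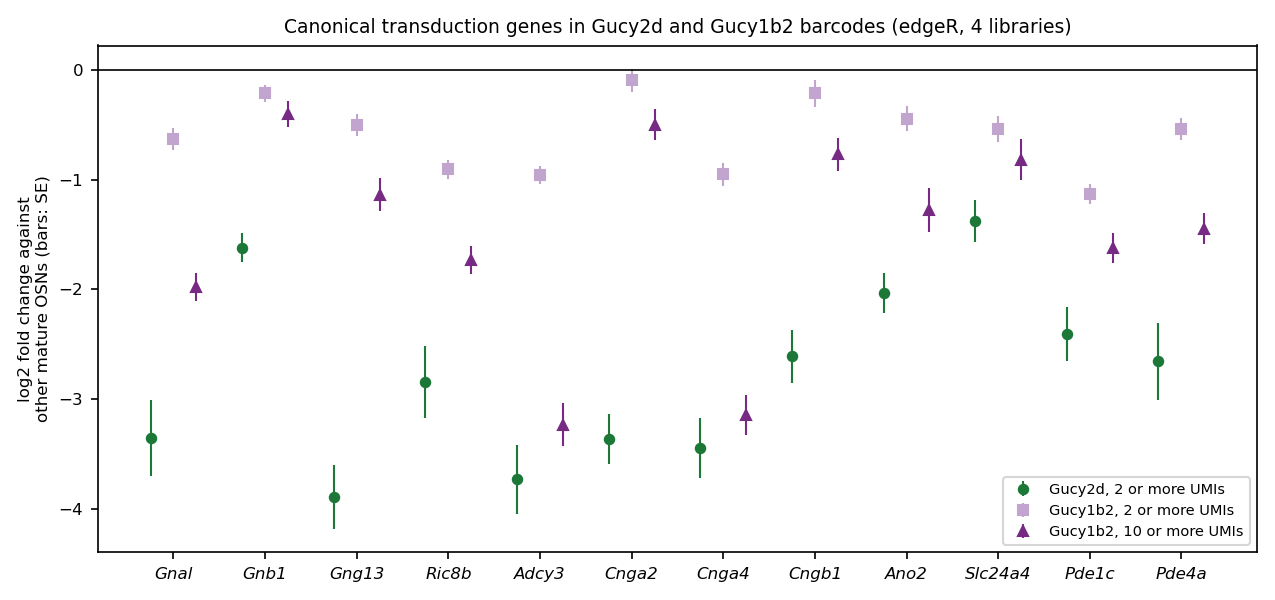
Log2 differences from the other mature OSNs for the 12 canonical transduction genes, in Gucy2d barcodes, Gucy1b2 barcodes and the Gucy1b2 barcodes with 10 or more UMIs; bars are standard errors. All 12 are below 0 in Gucy2d barcodes (median -2.75), and the Gucy1b2 barcodes with 10 or more UMIs (median -1.36) lie below all Gucy1b2 barcodes (median -0.54). Gng13 is a marker of the mature OSN gate.

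In Gucy1b2 barcodes Car2 was near its level in the other mature OSNs, and most genes of the usual pathway were lower. The comparison called 17.8% of 9102 genes (1621), 11.0% higher and 6.80% lower, and 971 genes without female 1 and 1011 without female 2. Within the mature OSN gate it called 1220 genes, and the comparison of Gucy2d barcodes, of which only 29 are in that gate, called 664, so the 2 counts have no fixed order. Here 439 genes entered only through their level in Gucy1b2 barcodes, 233 of the 1002 called higher among them. Of the other members only Car2 had enough UMIs to be tested. It stood at 52.8, 55.1, 80.02 and 43.2 CPM against 52.1 to 59.4, overlapping ranges with a difference of 0.05 ± 0.17 (adjusted p = 0.89). The sign of that difference changed with the filter on low counts and without male 1.

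Of the 12 canonical transduction genes 0 were higher, 9 lower and 3 not called, with a median of -0.54 against 0.00 over all genes. The gate marker Gng13 is among the 9. Adcy3 stood at 729, 671, 831 and 848 CPM against 1423 to 1484, all 4 below, and fell by 0.96 ± 0.08 (adjusted p = 9.0e-07). Cnga2 stood at 749, 714, 1115 and 983 CPM against 890 to 954, on both sides of them (-0.09 ± 0.11, adjusted p = 0.63). Cngb1 and Gnb1 also did not pass (adjusted p = 0.27 and 0.065). Of the 9 calls that of Ano2 was lost with possible doublets left out (adjusted p = 0.089), within the mature OSN gate (0.089) and without female 1 (0.11) or female 2 (0.057), and that of Gng13 without the library as a block (0.15). In barcodes with under 3 Olfr UMIs 5 of the 12 were lower, with a median of -0.80.

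These sums mix barcodes whose other counts differed with the number of Gucy1b2 UMIs. In the 51 barcodes with 10 or more, the medians were 68 Gucy1b2 UMIs, 0 of Adcy3, 10 of Gnal, 10 of Cnga2, 15 of Emx1 and 2 of all Olfr genes. In the 48 barcodes with 2 to 4 Gucy1b2 UMIs they were 20.5 of Adcy3, 43 of Gnal, 14 of Cnga2 and 73.5 of Olfr genes, near or above the 11, 24, 7 and 54 of the other mature OSNs, at a median depth of 11256 against 7954. Emx1 was at 2 or more UMIs in 47 of the 51 (92.2%) and in 3 of the 48 (6.25%).

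An Olfr sum of 3 or more was reached by 18 of the 51 (35.3%), close to the 38.9% of sustentacular cells, and by 35 of the 48 (72.9%). After thinning to 2000 UMIs an Adcy3 UMI was found in 18.4% and 80.6% of these 2 bands, a Cnga2 UMI in 71.5% and 80.9%, and an Emx1 UMI in 76.5% and 2.84%. The 10 barcodes with 5 to 9 UMIs were mixed: 6 had at most 1 Adcy3 UMI and 9 Gnal UMIs, 3 of them with 2 or more Emx1 UMIs, and 4 had 18 to 32 Adcy3 UMIs and at least 50 Gnal UMIs, 3 of them with Taar UMIs. The 236 barcodes with a single Gucy1b2 UMI resembled the lower band, with a median Olfr sum of 61.5 and 2 or more Emx1 UMIs in 5.

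**Figure D4:**
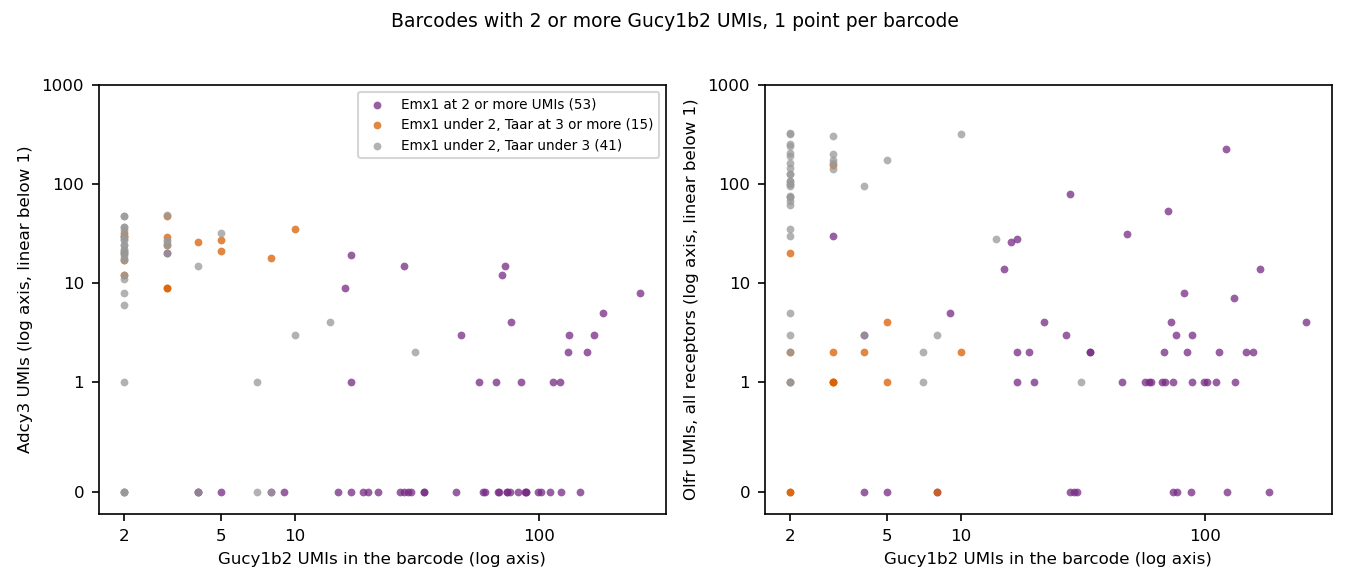
Adcy3 UMIs and Olfr UMIs against Gucy1b2 UMIs in the 109 Gucy1b2 barcodes, on log axes linear near 0, with colours for 2 or more Emx1 UMIs (53), fewer Emx1 UMIs with 3 or more Taar UMIs (15) and neither (41). Barcodes with high Gucy1b2 are mostly those with Emx1 and sit at low Adcy3 and Olfr counts, and 44 of the 58 with fewer than 10 Gucy1b2 UMIs have 2 or more Adcy3 UMIs.

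With the threshold at 10 Gucy1b2 UMIs, 19.7% of 7555 genes were called, 7.68% lower. All 12 transduction genes, the gate marker Gng13 among them, were lower, with a median of -1.36. Adcy3 fell by 3.23 ± 0.19, Cnga4 by 3.14 ± 0.18, Gnal by 1.98 ± 0.13 and Cnga2 by 0.50 ± 0.14 (adjusted p = 0.017). This threshold was chosen after the values were seen. The order of Cnga4 and Cnga2 differed from that in Gucy2d barcodes, where both were down by over 3; the difference between the populations was not tested.

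The genes of lowest p that were higher in Gucy1b2 barcodes were Sln, Emx1, Sncg, Guk1, Slurp2, Fmn1, Pebp1, Rims3, Calb2, Gnas and Eya2, Emx1 being from the list of factors. Sln, Emx1, Sncg, Slurp2 and Eya2 entered only through these barcodes, so for them p served to pick names and is no support. Sln, which codes for the calcium pump regulator sarcolipin, stood at 116, 313, 419 and 481 CPM against 0.139 to 0.277 (10.77 ± 0.22). Emx1 stood at 359, 503, 527 and 540 CPM against 0.691 to 1.32 (8.82 ± 0.16). Guk1, the guanylate kinase that recycles GMP, rose by 3.16 ± 0.11 and Calb2, the calcium buffer calretinin, by 2.19 ± 0.11. Lower were S100a5, Bpifa1, Hbb-bs, Pcp4l1 and Kirrel2, by 2.74 ± 0.12 for S100a5 and 2.02 ± 0.12 for the adhesion protein Kirrel2. The globin gene Hbb-bs stood at 140 CPM in the other mature OSNs, and Bpifa1 at 1887 CPM. The part of free RNA and of depth in the differences of these 2 genes was not tested.

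The comparisons of Gucy2d and Gucy1b2 barcodes share the other mature OSNs as controls, so their values are only set side by side, Gucy2d first. Emx1 differed by 8.48 and 8.82 on the log2 scale, Sncg by 8.93 and 8.44, Gnas by 3.73 and 1.78, Pde1a by 6.88 and 4.95, and S100a5 by -3.80 and -2.74. Pde1a was at 160 ± 69.8 and 39.4 ± 7.27 CPM, against 1.24 ± 0.127 in the controls. Sln had 2 or more UMIs in 30 of the 51 barcodes with 10 or more Gucy1b2 UMIs and in 0 of the 73 Gucy2d barcodes, where 0 of 73 allows a share with that many UMIs of up to 4.11%.

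Among the other lists, 0 of 5 phosphodiesterases were higher and 3 lower. Pde1a (4.95 ± 0.47), Pde1b (2.92 ± 0.45) and Pde7a entered only through these barcodes. Car11 was the one carbonic anhydrase to pass, at 0.72 ± 0.18 (adjusted p = 0.012), and it did not pass without female 1 (adjusted p = 0.13) or female 2 (adjusted p = 0.052). Of the maturation genes 3 of 12 were higher and 3 lower, with Gng8 at 2.09 ± 0.30 and Omp at -0.65 ± 0.08. All but Rtp2 of these genes are gate markers, so these differences too can follow in part from the gating. The call of Dpysl3, 1 of the 3 higher, was lost within the mature OSN gate (adjusted p = 0.56) and with under 3 Olfr UMIs (adjusted p = 0.81). Trpc1 did not pass. No cGMP, Ms4a or vomeronasal receptor gene had enough UMIs to be tested. The 350 vomeronasal receptor genes had 7 UMIs in all. The 21 Ms4a genes had no UMI in these 109 barcodes, which allows up to 1.83 CPM in sum.

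The low band of Gucy1b2 was not spread evenly over receptors. Mature OSNs were assigned to a receptor where 1 Olfr gene had at least 3 UMIs and at least 80% of the barcode's Olfr UMIs, and 271 receptors had 20 or more such barcodes, 13273 in all. In 221 of them no OSN had a Gucy1b2 UMI, and the median share was 0. Olfr1507 had 60 of 263 (22.8%, 95% exact interval 17.9% to 28.4%), at 26.4%, 28.1%, 15.2% and 21.3% in female 1, female 2, male 1 and male 2. Olfr390 had 10 of 33 (30.3%, interval 15.6% to 48.7%).

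No Olfr1507 barcode had more than 5 Gucy1b2 UMIs, and the sum of these barcodes was at 33.1 CPM. Of the 284 barcodes with 1 to 4 Gucy1b2 UMIs, 70 had Olfr1507 as their top receptor and 10 had Olfr390. Olfr1507 lies on the same chromosome as Gucy1b2 (chr14:52488791-52495749, minus strand), and Olfr390 on another (chr11:73782964-73790446, plus strand). These receptors, Olfr550 and the single Taar genes below were named after their values were seen and carry no test.

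**Figure D5:**
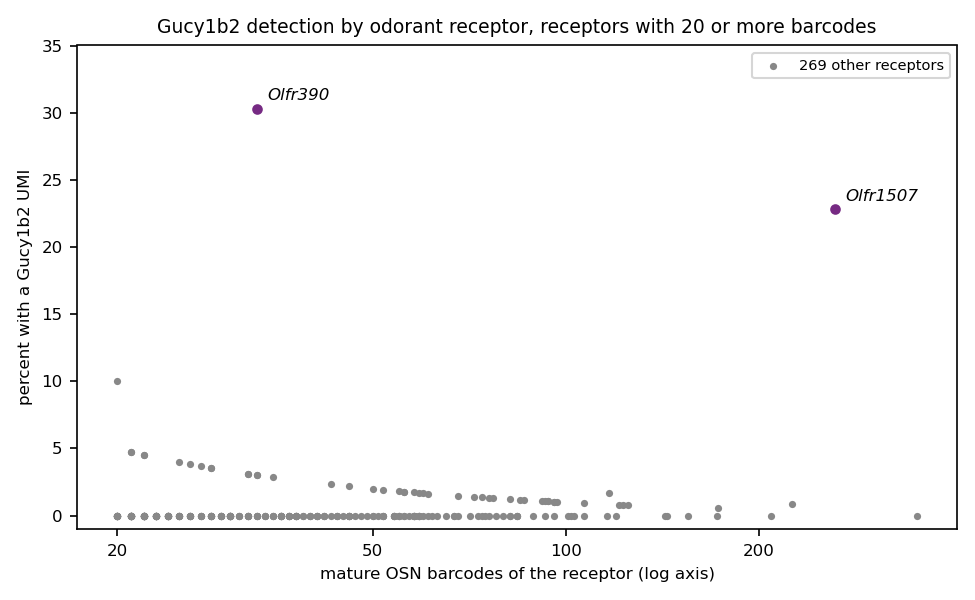
Share of mature OSNs with a Gucy1b2 UMI for each of 271 odorant receptors, against the number of OSNs assigned to the receptor. Olfr390 (30.3%) and Olfr1507 (22.8%) stand above the other 269, whose highest share is 10.0%.

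Trace amine receptors replace Olfr genes in a small set of OSNs. The 2 Taar genes in the comparison, Taar7a and Taar7d, entered it only through Gucy1b2 barcodes. Taar7a stood at 0, 344, 712 and 486 CPM, from 523 UMIs in 7 barcodes, against 0.0398 to 1.84 (a difference of 9.12 ± 0.56, and 8.17 without male 1). It was absent from the sum of female 1. Taar7d stood at 27.3, 0, 85.5 and 86.4 CPM (a difference of 6.84 ± 0.97).

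Of the 170 barcodes with 3 or more Taar UMIs, 21 had a Gucy1b2 UMI (12.4%) and 0 had a Gucy2d UMI. Over all kept barcodes the shares were 0.846% and 0.351%, so 0 of 170 does not show that Gucy2d is absent there. By the top Taar gene, a Gucy1b2 UMI was found in 7 of 12 for Taar7a, 7 of 14 for Taar7d and 2 of 4 for Taar8b. It was found in 0 of 28 for Taar4, 0 of 24 for Taar7b, 0 of 13 for Taar7e and 0 of 15 for Taar7f. The Taar7 genes are near-identical copies, so how their reads were split is uncertain. No barcode in this set had more than 10 Gucy1b2 UMIs.

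In Gucy2d barcodes with receptor UMIs the most frequent top receptor was Olfr550. Of the 39 barcodes with 5 or more Gucy2d UMIs, 23 had 3 or more Olfr UMIs. Olfr550 was the top gene in 7, Olfr556 in 4 and Olfr536 in 3. With 10 or more Olfr UMIs there were 12 barcodes, and in 7 of these the top gene was Olfr550, with all 4 libraries represented. Among assigned mature OSNs Olfr550 had the highest share of all 271 receptors for Gucy2d (4 of 28, 14.3%), Pde2a (4 of 28) and Cnga3 (3 of 28, 10.7%), and 0 of 28 had a Gucy1b2 UMI.

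Its 28 barcodes held 908 Car2 UMIs, or 4015 CPM, where the median receptor held 58.4 CPM. Of these 901 lay in 3 barcodes that each had 9 or more Gucy2d UMIs. A Car2 UMI was found in 8 of the 28 (28.6%), below the median receptor's 35.6%. Olfr550 lies on the chromosome of Gucy2d and Pde2a (chr7:102571442-102583011, plus strand). The 7 Olfr550 barcodes had at most 1 Cnga2 UMI and 3 Adcy3 UMIs each.

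By sex, no member passed an adjusted p of 0.05 in edgeR's quasi-likelihood test, which called 0.0264% of 15129 genes in mature OSNs and 0.0239% of 16761 over all barcodes. The 4 genes called in mature OSNs were 0 to 2 when a library was left out, 0 without male 1 or male 2. In mature OSNs Gucy1b2 at 15.7 and 11.6 CPM in males was below 27.2 and 19.9 in females (-0.76 ± 0.22, adjusted p = 0.77), with no overlap. Car2 at 78.7 and 77.2 in males was above 67.7 and 65.6 in females (0.26 ± 0.03, adjusted p = 0.39), and with the Gucy2d barcodes left out the male values, 55.8 and 52.1, no longer stood above the female ones, 59.4 and 53.9. DESeq2 called both, among 271 genes in all, with adjusted p = 0.023 for Gucy1b2 and 1.7e-06 for Car2. Without adjustment 2 of 4 members in mature OSNs, Gucy1b2 and Car2, and 1 of 5 over all barcodes, Gucy1b2, had p under 0.05. In edgeR's test so did 912 of all 15129 genes in mature OSNs and 1217 of 16761 over all barcodes.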

How the data were processed

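Single-cell RNA libraries of the main olfactory epithelium, 2 from female and 2 from male mice, were grouped by sex as the labels give it. Raw UMI counts were deposited as 1 matrix per library, counted with Cell Ranger 6.0.2 per the file headers and 5.0.1 per the submitters' processing notes, which also name the build mm10. The matrices show no normalization by the authors. The members and lists were chosen with earlier results of these data known.

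Barcodes with at least 500 genes were kept, without further filtering, and gated by the cell type with the most of its 6 markers at 2 or more UMIs, if at least 3 and more than for any other type. 19 types were scored and 15 with at least 20 barcodes were described. Doublets were scored against simulated doublets (scikit-learn 1.9.0) and marked, at 0.8% per 1000 barcodes, but removed only as an alternative. Counts were summed per library and population and tested with edgeR 4.0.16 (quasi-likelihood, TMM, R 4.3.3), Benjamini-Hochberg adjusted at 0.05 over all genes. Populations were compared with the library as a block. For chosen barcodes, genes worth at least 5 UMIs in the small sums were kept. DESeq2 1.42.0 was an alternative. Standard errors were derived from the fold change and its test statistic. CPM are UMIs per 1e6 UMIs of the summed barcodes. Thinned shares are the expected shares at 2000 UMIs per barcode, with shallower barcodes left out. Intervals are exact binomial, and a count of 0 allows 3 counts; both cover counting error only.

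On simulated data 4-fold changes were recovered for a share of 0.99 to 1 and 2-fold changes for 0.76 to 0.895, by comparison. The simulation gave all genes the same fixed dispersion and changed only genes worth at least 5 UMIs in the smallest sum. These shares therefore do not measure the power in the real sums, whose spread can be wider. Genes were named by rule: members, called genes of 11 lists (at most 8 per list by lowest p), the 10 higher and 5 lower genes of lowest p outside the lists with odorant receptors left out, and the genes most like each member. Of the gene IDs 99.8% matched GENCODE M21 on GRCm38, which gave the positions. The labels do not say whether replicate numbers pair the sexes, and the sexes were compared without a block. Alternatives were other tests, scalings, filters, gates and thresholds, and leaving out each library.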

Additional observations from a re-analysis of the deposited data

How the results depend on the processing

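Over the comparisons, 2225 values of named genes kept their direction and side of the threshold under an alternative, 15 passed only there, 34 no longer passed and 11 changed sign. The count of genes called in Gucy2d barcodes was 3296, and 4978 with no filter on low counts, 664 within the mature OSN gate, 1929 at 10 or more UMIs and 1582 with under 3 Olfr UMIs; leaving out a library gave 2230 to 3268. The count in Gucy1b2 barcodes was 1621, and 2738 with no filter, 2613 with filterByExpr and 443 with under 3 Olfr UMIs, and leaving out a library gave 971 (without female 1) to 1582, with 1011 without female 2. In these, fewer or more barcodes or genes entered the fit. There Cnga2 changed sign with possible doublets left out (0.054) and within the mature OSN gate (0.074), and Car2 with no filter (-0.042), filterByExpr (-0.01) and without male 1 (-0.12).

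The sex comparison called 4 genes in mature OSNs, 271 by DESeq2, 2 with no filter and 2 with markers at 1 UMI, and leaving out a library gave 0 to 2 (edgeR, with 844 and 933 genes at an unadjusted p under 0.05 without male 1 and male 2, which called 0). Over all barcodes it called 4 and 467 by DESeq2, and leaving out a library gave 1 to 5. The replicate block gave 1 called gene in mature OSNs and 1 over all barcodes. Deviations of same-numbered libraries had r = -0.0596 over 15129 genes, and 2 pairs cannot show whether these libraries were handled together. Over left-out libraries, the sex differences over all barcodes ran from -2.44 to 0.012 for Cnga3, -0.28 to 0.29 for Car2 and -0.62 to 0.088 for Pde2a, all 3 highest without female 2, and Car2 was 0.14 without male 1. In mature OSNs Pde2a ran from -0.21 to 0.049 (without female 2) and was 0.11 with possible doublets left out. The male minus female share of Gucy2d barcodes turned to 0.0200 percentage points at 10 or more UMIs and ran from -0.0783 to 0.00996 (without female 2) over left-out libraries. That of Gucy1b2 barcodes was -0.212 at 1 or more UMIs and -0.0526 at 10 or more, and ran from -0.186 to -0.0707. The cell type of the highest level was kept for 3 of 5 members with the Gucy2d barcodes left out and for 4 of 5 without male 2, where Cnga3 moved to sustentacular cells. The cause of these changes was not tested. The thresholds at 5 and 10 UMIs, filterByExpr, the split by Olfr UMIs and leaving out the Gucy2d barcodes were chosen after seeing the data. The planned comparison of Trpc2 barcodes was not run. Limits are the 2 libraries per sex, the 92 Cnga3 UMIs in all, and a depth per barcode that was higher where cyclase UMIs were more.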
